A study of Oryza sativa with 6 samples.

Results

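The SUT and SWEET sugar transporters are the membrane proteins that move sucrose and hexoses into the filling rice grain. They were followed here as 10 genes, the sucrose transporters SUT1 to SUT5 and the sugar facilitators SWEET4, SWEET11, SWEET13, SWEET14 and SWEET15. The genes were taken by their locus identifiers from a table of 55986 rice loci. RNA was sequenced from dehulled developing seeds (10 to 14 days after flowering) of 2 genotypes. The rbpl libraries (3 biological repeats, rbpl-1 to rbpl-3) came from a line with a knockdown of RBP-L, an RNA-binding protein. The WT libraries (3 biological repeats, WT-1 to WT-3) came from the wild type, ZH11, a japonica cultivar. Both genotypes grew in walk-in chambers at 27 °C, with 12 h of light and 12 h of dark. One knockdown line was compared with the cultivar, so RBP-L and other differences between the line and ZH11 cannot be told apart.

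Sucrose reaches the rice grain through the vascular bundle on its dorsal side. The maternal tissue and the endosperm share no cytoplasmic connection, so sugar has to be released to the cell wall space and taken up again. SWEET proteins are uniporters that let sugar pass down its gradient. SUT proteins carry sucrose together with protons and can therefore accumulate it. In rice, SWEET11 and SWEET15 are known for sucrose release around the endosperm, SWEET4 for hexose transport into it, and SUT1 for sucrose loading in the phloem and uptake by the aleurone.

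Of the 10 transporters, 2 rose in rbpl seeds. SWEET13 had the larger rise, to 3.77 times its WT level, though it remained a gene of modest abundance. SWEET15 rose to 1.36 times its WT level, and its call was lost in 7 of 12 alternative analyses. Of the 3 SUT genes that could be tested, 0 were called by limma and 0 by limma-voom, and 0 reached 0.05 before adjustment. SWEET11, by far the most abundant of the 10, had 2299 ± 117 RPKM in rbpl seeds and 1789 ± 528 RPKM in WT seeds (SD, n = 3 each), a difference that did not pass the test. RPKM corrects reads for gene length and for library depth, so levels of different genes can be set side by side. Where single libraries are listed, they stand in the order of their replicate numbers.

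The test was limma on log2(RPKM + 1), run over the 17507 loci with a mean of at least 1 RPKM in either genotype, with Benjamini-Hochberg adjustment over all of them and a threshold of 0.05. Log2 fold changes are rbpl minus WT on this scale, which understates the change of low genes. Of the 10 transporters 8 passed the filter on low values, SUT5 was below it and SUT3 had no reads. Among the 8, 2 rose and 0 fell. Of all tested loci, 6.56% were called, 3.46% that rose and 3.1% that fell. Over the 8 transporters the median log2 fold change was 0.29, and over all tested loci −0.04. The 3 tested SUT genes had a median of −0.09 and the 5 SWEET genes one of 0.44.

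The library totals recovered from the RPKM steps were 47633680 to 50159592 reads in rbpl and 44187374 to 50714582 reads in WT. The RBP-L transcript, taken as LOC_Os04g53440, was at 14.9 ± 0.481 RPKM in rbpl and 56.9 ± 5.79 RPKM in WT (SD, n = 3 each), a difference of −1.86 on the log2 scale (limma, adjusted p = 0.000159). All 6 endosperm markers examined (starch synthesis and storage protein genes) had reads in every library, with summed levels of 12755 to 14165 RPKM in rbpl and 13880 to 20911 RPKM in WT. Of these 6, limma called 0 and limma-voom 0, 3 had an unadjusted p below 0.05, and 4 were lower in every rbpl library than in any WT library. Over all tested loci, 21.6% had an unadjusted p below 0.05, and 17.9% were lower in every rbpl library than in any WT library. The storage protein genes GluA1 and GluA2 had log2 fold changes of −0.85 and −0.79 (limma, adjusted p = 0.0694 and 0.0671). Both were called without WT-1 (adjusted p = 0.0148 and 0.0124) and without WT-2 (adjusted p = 0.0398 and 0.0384). The seeds also held transcripts of 6 genes of green tissue, 3 of the Rubisco small subunit and 3 of light-harvesting proteins, at sums of 6040 to 6908 RPKM in rbpl and 2623 to 5376 RPKM in WT. Of these 6, 3 rose (the Rubisco genes, each called in 5 to 9 of the 12 alternatives) and 0 fell. Without WT-1, the light-harvesting genes had log2 fold changes of 0.12, 0.55 and 0.38 (limma, adjusted p = 0.476, 0.0019 and 0.00966). The 3 markers of embryo and aleurone, of which limma and limma-voom called 0 (1 was below 0.05 before adjustment), summed to 4656 to 6060 RPKM in rbpl and 4727 to 5209 RPKM in WT. That 1 marker had a log2 fold change of 0.82 (limma, adjusted p = 0.165). Without WT-1 it was called, at 1.20 (limma, adjusted p = 7.98e-05), and the other embryo and aleurone markers were not (adjusted p = 0.619 and 0.515). WT-1 stood apart within its group. It lay at least 2-fold from both other WT libraries at 576 tested loci, against 3 to 14 loci for each of the other 5 libraries within their own groups. Without WT-1, 3130 loci (18% of those tested) were called in place of 1148, and the 2 transporters called were again SWEET13 and SWEET15. Results that turn on WT-1 are given with and without it below.

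**Figure D1:**
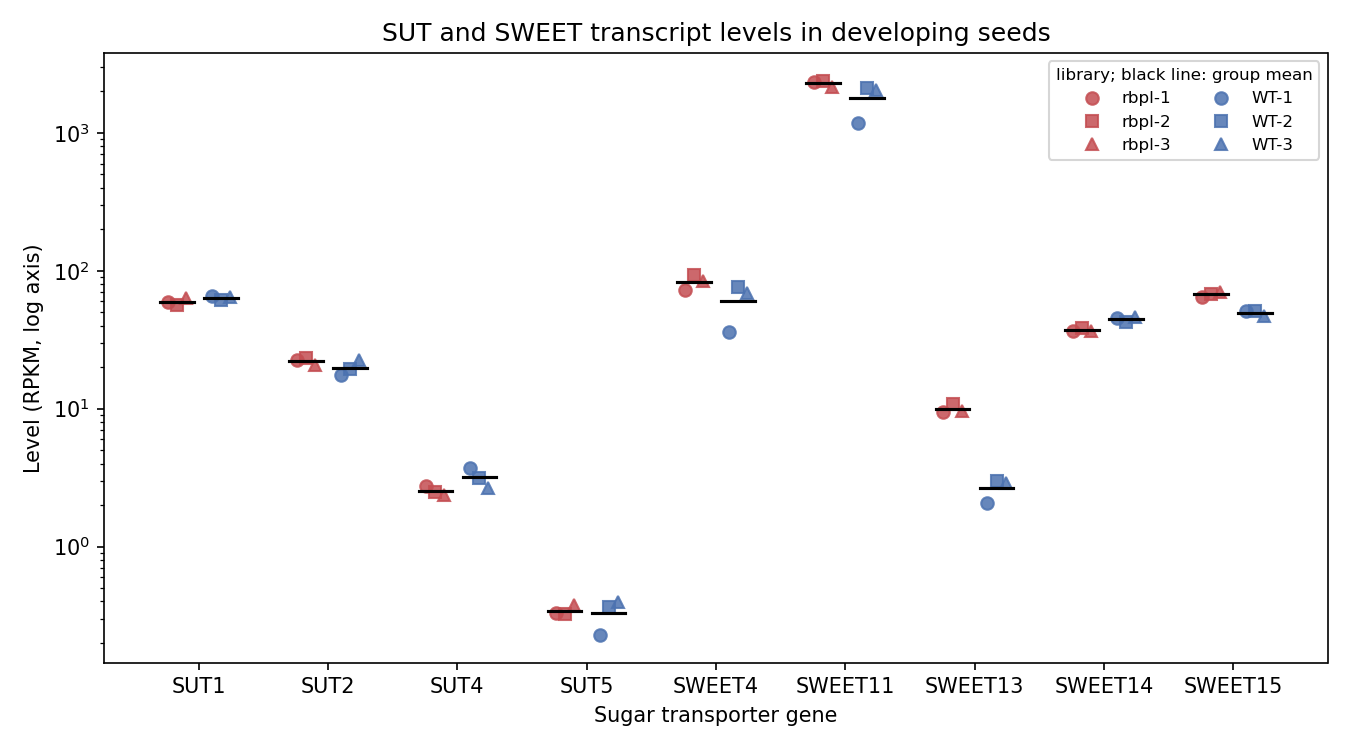
Level of 9 transporters in each library, in RPKM on a log axis, with rbpl in red, WT in blue and a black line at each group mean (n = 3). SUT3 had 0 RPKM in every library and is not drawn; SWEET13 is the gene whose groups are farthest apart, at 9.49 to 10.8 RPKM in rbpl and 2.08 to 3.01 RPKM in WT.

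SWEET11, at LOC_Os08g42350 on chromosome 8, is a plasma membrane sucrose facilitator, known in rice for seed filling and as a gene switched on by Xanthomonas bacteria in leaf blight. Its level was 2335, 2393 and 2168 RPKM in rbpl, against 1181, 2131 and 2054 RPKM in WT. These rest on 164851 to 188573 reads in the rbpl libraries and 87336 to 163684 reads in the WT libraries. Each rbpl library was above each WT library, but WT-1 was far below the other 5, at 0.564 times the mean of WT-2 and WT-3. On the log2 scale the difference was 0.41 ± 0.22 (SE), with a 95% interval of −0.11 to 0.93 (limma, adjusted p = 0.336). Without WT-1 it was 0.13 (limma, adjusted p = 0.33), and the ratio of the means was 1.10 in place of 1.28. SWEET11 was 22nd by mean level among the 17507 tested loci.

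SWEET11 dominated the family in both genotypes. It made up 88.3% to 89.7% of the summed RPKM of the 10 transporters in rbpl and 84.2% to 89.2% in WT. Among SWEET11, SWEET13, SWEET14 and SWEET15, the members of the sucrose-transporting clade III, its share was 94.9% to 95.5% in rbpl and 92.3% to 95.7% in WT. The ranges of both shares overlap between the genotypes.

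SWEET4, at LOC_Os02g19820 on chromosome 2, is a hexose facilitator known for grain filling in maize and rice. It had 73.1, 93.0 and 84.6 RPKM in rbpl, against 35.9, 76.5 and 69.5 RPKM in WT. The groups overlapped, since WT-2 exceeded rbpl-1, and WT-1 was again the lowest library. Its log2 fold change of 0.52 ± 0.27 (SE) had a 95% interval of −0.09 to 1.14 (limma, adjusted p = 0.305). Without WT-1 it was 0.19 (limma, adjusted p = 0.267).

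WT-1 was low at SWEET11 and SWEET4 and also at the 3 light-harvesting genes. Their summed level was 6187, 6494 and 5619 RPKM in rbpl, against 2353, 5111 and 4764 RPKM in WT. As a percentage of the mean of WT-2 and WT-3, WT-1 stood at 56.4% for SWEET11, 49.1% for SWEET4 and 47.7% for the light-harvesting sum. The rbpl libraries stood at 104% to 114%, 100.1% to 127% and 114% to 132% for the same 3 measures. The Rubisco genes, the other green tissue markers, were not low together in WT-1, where their sum stood at 99.97% and the single genes at 0.796, 1.08 and 1.15 times the mean of WT-2 and WT-3. The endosperm markers were highest in WT-1, with a sum of 20911 RPKM there against 13880 and 16129 RPKM in WT-2 and WT-3, and with GluA1 at 1.60 times, GluA2 at 1.52 times and the starch branching enzyme gene SBE2b at 1.41 times the mean of those libraries. In whole seeds, fewer cells of a type and less RNA per cell cannot be told apart, and the part that green tissue or endosperm has in these levels was not tested.

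**Figure D2:**
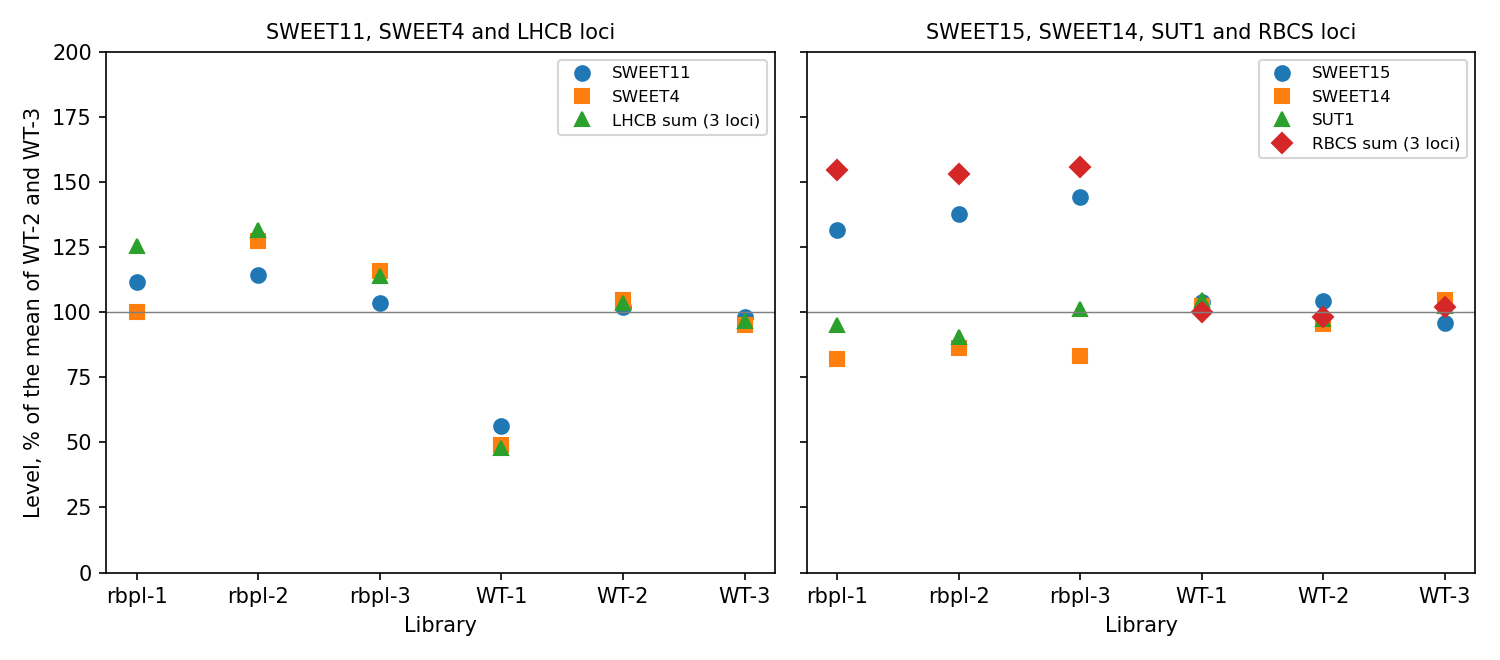
Level in each library as a percentage of the mean of WT-2 and WT-3, for SWEET11, SWEET4 and the sum of 3 light-harvesting (LHCB) genes on the left, and for SWEET15, SWEET14, SUT1 and the sum of 3 Rubisco small subunit (RBCS) genes on the right. WT-1 lies at 47.7% to 56.4% on the left, while on the right it lies between 99.97% and 104%.

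SWEET15, at LOC_Os02g30910 on chromosome 2, is a sucrose facilitator that acts together with SWEET11 in rice seed filling. Its level was 64.5, 67.5 and 70.7 RPKM in rbpl, against 50.9, 51.1 and 47.0 RPKM in WT. The groups did not overlap, and WT-1 lay between WT-2 and WT-3. Means were 67.5 ± 3.11 RPKM in rbpl and 49.6 ± 2.31 RPKM in WT (SD, n = 3 each). This is a log2 fold change of 0.44 ± 0.10 (SE), with a 95% interval of 0.21 to 0.66 (limma, adjusted p = 0.037). SWEET15 rose without WT-1 as well (adjusted p = 0.00395), but was not called without any 1 of the other 5 libraries (adjusted p of 0.0948 to 0.179 by limma). With the replicate number as a block its adjusted p was 0.118, and with no filter on low values 0.0605. The Rubisco small subunit genes moved beside it, with sums of 414 to 421 RPKM in rbpl and 265 to 276 RPKM in WT, and their part in the result was not tested.

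SWEET13, at LOC_Os12g29220 on chromosome 12, is a sucrose facilitator best known from leaf phloem loading in grasses and as another target of Xanthomonas. It had 9.49, 10.8 and 9.66 RPKM in rbpl, against 2.08, 3.01 and 2.88 RPKM in WT. The reads behind these were 772, 928 and 798 in rbpl and 167, 227 and 249 in WT. The lowest rbpl library was well above the highest WT library. Means were 10.0 ± 0.733 RPKM in rbpl and 2.65 ± 0.504 RPKM in WT (SD, n = 3 each), a ratio of 3.77. The difference was 1.60 ± 0.13 (SE) on the log2(RPKM + 1) scale, with a 95% interval of 1.29 to 1.90 (limma, adjusted p = 0.00088). SWEET13 stayed called in all 12 alternatives, with log2 fold changes of 1.48 to 1.93 and adjusted p from 1.98e-06 to 0.0113. Without WT-1, its lowest WT library, the ratio was 3.40.

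In the order of levels, SWEET13 was the 7th of the 10 transporters in rbpl and the 8th in WT, or the 7th in WT without WT-1. In rbpl it lay above SUT4 with no overlap of their ranges, whereas in WT its range overlapped that of SUT4, with and without WT-1. Even so, SWEET13 held only 0.388% to 0.432% of the summed clade III level in rbpl, and 0.134% to 0.162% in WT.

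SWEET14, at LOC_Os11g31190 on chromosome 11, is a sucrose facilitator that is active in the rice caryopsis and is also induced by Xanthomonas. Its level was 36.4, 38.3 and 36.8 RPKM in rbpl, against 45.4, 42.2 and 46.4 RPKM in WT. All rbpl libraries were below all WT libraries. The fitted log2 fold change of −0.26 ± 0.09 (SE), with a 95% interval of −0.47 to −0.04, did not pass the test (limma, adjusted p = 0.159). Its unadjusted p was 0.0247, and 21.6% of all tested loci had one below 0.05. Of the 8 tested transporters, 3 were higher in every rbpl library than in any WT library (SWEET11, SWEET13 and SWEET15) and 1 was lower (SWEET14). Over all tested loci the shares were 12.2% and 17.9%.

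**Figure D3:**
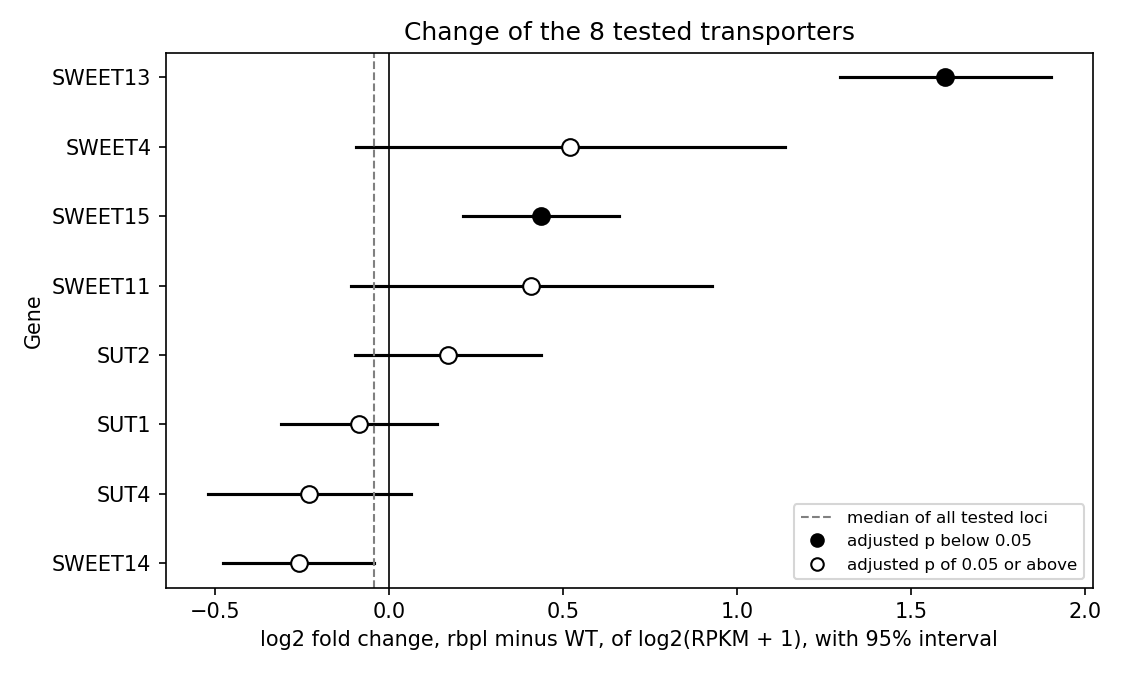
Log2 fold change of the 8 tested transporters, rbpl minus WT on the log2(RPKM + 1) scale, with 95% intervals from limma; filled points have an adjusted p below 0.05 and the dashed line marks the median of all tested loci at −0.04. SWEET13 (1.60) and SWEET15 (0.44) are filled, and SWEET4 and SWEET11 have the widest intervals.

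SUT1, at LOC_Os03g07480 on chromosome 3, is the main proton-coupled sucrose importer of the filling rice grain. It had 59.5, 56.7 and 63.3 RPKM in rbpl, against 65.4, 61.0 and 64.2 RPKM in WT. The groups overlapped and the spread among libraries was small, with SDs of 3.32 RPKM in rbpl and 2.25 RPKM in WT (n = 3 each). The 95% interval of its log2 fold change of −0.09 was −0.31 to 0.14 (limma, adjusted p = 0.658). SUT1 supplied 68.4% to 72.8% of the summed level of the 5 SUT genes in rbpl and 71.6% to 75.3% in WT.

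SUT2, at LOC_Os12g44380 on chromosome 12, sits in the vacuolar membrane and exports sucrose from the vacuole. Its level was 22.5, 23.4 and 20.8 RPKM in rbpl, against 17.6, 19.3 and 22.4 RPKM in WT. WT-3 lay inside the rbpl range. Limma gave a log2 fold change of 0.17 and a 95% interval of −0.10 to 0.44 (adjusted p = 0.444).

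SUT4, at LOC_Os02g58080 on chromosome 2, is a further sucrose transporter and was about as low as SWEET13 in WT seeds. It had 2.76, 2.51 and 2.38 RPKM in rbpl, against 3.72, 3.15 and 2.65 RPKM in WT. The groups overlapped, with rbpl-1 above WT-3. Its difference of −0.23 on the log2 scale had a 95% interval of −0.52 to 0.06 (limma, adjusted p = 0.341). Without WT-1, its highest WT library, the fold change was −0.13.

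SUT5, at LOC_Os02g36700 on chromosome 2, another proton-coupled sucrose transporter, had few reads, with 32, 33 and 37 reads in rbpl and 22, 33 and 41 reads in WT. Its mean was 0.341 ± 0.0283 RPKM in rbpl and 0.33 ± 0.0889 RPKM in WT (SD, n = 3 each), below the filter of the test. An exact permutation test of its RPKM gave p = 0.9, two-sided. SUT3, at LOC_Os10g26470 on chromosome 10, a gene known from rice pollen, had 0 reads in all 6 libraries. Its name was not matched to a reference gene, as given under the processing. At these depths 0 reads allow up to 3 reads per library, or 0.0592 to 0.0679 RPM (library-scaled reads without the length term), for counting error only.

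The summed level of the 5 SUT genes was 82.9 to 86.9 RPKM in rbpl and 83.9 to 89.6 RPKM in WT, ranges that overlap. The 5 SWEET genes summed to 2369 to 2603 RPKM in rbpl, against 1315 RPKM in WT-1 and 2220 to 2304 RPKM in WT-2 and WT-3. Exact permutation tests of the single genes could not fall below p = 0.1 with 3 libraries in each group. That value was reached by SWEET11, SWEET13, SWEET14 and SWEET15.

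In rbpl the order of levels had no overlap between neighbours, from SWEET11 down through SWEET4, SWEET15, SUT1, SWEET14, SUT2, SWEET13, SUT4 and SUT5 to SUT3. In WT the order was SWEET11, SUT1, SWEET4, SWEET15, SWEET14, SUT2, SUT4, SWEET13, SUT5 and SUT3. There the ranges of SUT1 and SWEET4, of SWEET4 and SWEET15, and of SUT4 and SWEET13 overlapped, so these neighbours did not differ beyond their spread. Part of this order turned on WT-1. In WT-2 and WT-3 alone SWEET4 was 2nd, at a mean of 73.0 RPKM, above SUT1 at 62.6 RPKM and SWEET15 at 49.0 RPKM with no overlap, and SWEET13 at 2.94 RPKM was next to SUT4 at 2.90 RPKM with overlap. SWEET15 was above SUT1 in all rbpl libraries and below it in all WT libraries.

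SWEET13 and SWEET14 differed in opposite directions by similar amounts of RPKM, a pattern picked out after their values were seen and therefore not tested. Their sum was 45.9, 49.1 and 46.4 RPKM in rbpl, against 47.4, 45.3 and 49.3 RPKM in WT. The sums overlapped between the groups, with means of 47.2 ± 1.73 RPKM in rbpl and 47.3 ± 2.03 RPKM in WT (SD, n = 3 each). SWEET13 provided 20.7% to 22.1% of this sum in rbpl and 4.38% to 6.65% in WT. Both belong to clade III, and how reads that match several loci were counted is not given in the sources used here.

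**Figure D4:**
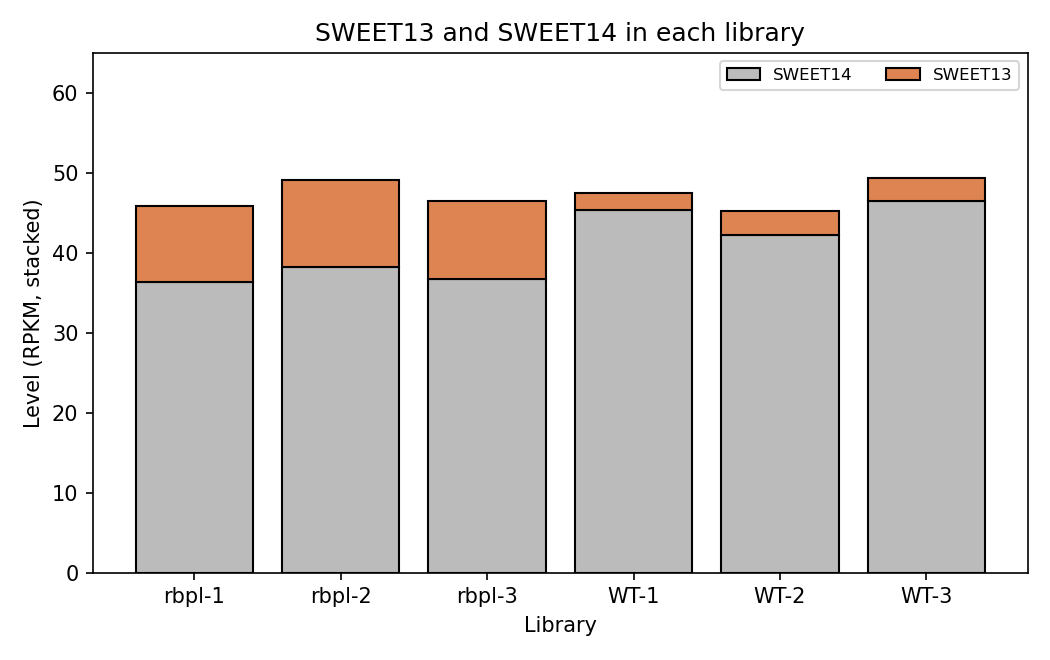
Level of SWEET14 (grey) and SWEET13 (orange), stacked, in RPKM in each library. The stacked height runs from 45.9 to 49.1 RPKM in rbpl and from 45.3 to 49.3 RPKM in WT, with a larger orange part in all 3 rbpl libraries.

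The rest of the SWEET family, listed as 14 further loci, held few loci with appreciable levels in these seeds. Of the 14, 5 had no reads in any library, 3 more stayed below the filter, and 6 were tested. Among these 6, 1 rose and 0 fell, and of all tested loci 3.46% rose and 3.1% fell. The unadjusted p was below 0.05 for 2 of the 6, and for 21.6% of all tested loci. Of the 6, 2 were higher in every rbpl library than in any WT library, and 1 was lower. Over all tested loci these shares were 12.2% and 17.9%. The median over the 6 was 0.10 on the log2 scale, and over all tested loci −0.04. The one that rose, SWEET2b (LOC_Os01g50460), had 0.752, 1.17 and 1.16 RPKM in rbpl, against 0.326, 0.135 and 0.437 RPKM in WT. It passed the filter only through its rbpl level. Its reads were 42, 69 and 66 in rbpl and 18, 7 and 26 in WT. Its log2 fold change was 0.64 (limma, adjusted p = 0.0338, or 0.0634 with no filter). Since the filter let it in by the group where it was high, this call is not support for a rise. SWEET2b was called in 5 of the 9 alternatives that tested it. In the other 4 of the 9 it was not called (limma, adjusted p of 0.0543 to 0.0921). In the alternatives outside the 9 it fell below the filter. The highest of the 14 was SWEET6a (LOC_Os01g42110), named here for its level after the values were seen. It had 128 ± 1.56 RPKM in rbpl and 127 ± 11.6 RPKM in WT (SD, n = 3 each), above every transporter of the set except SWEET11.

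Of 7 loci listed as monosaccharide transporters, which carry hexoses across the plasma membrane or into the vacuole, 3 were tested, and 0 rose and 0 fell by limma. The unadjusted p was below 0.05 for 2 of the 3, and for 21.6% of all tested loci. Those 2, LOC_Os07g37320 and LOC_Os02g13560, were called without WT-1 (limma, adjusted p = 0.00224 and 0.0434), where 18% of all tested loci were called. Limma-voom, which called 6.7% of all tested loci, called 0, and the median log2 fold change was −0.09. The highest was LOC_Os10g39440, with 31.9 ± 2.62 RPKM in rbpl and 34.0 ± 2.90 RPKM in WT (SD, n = 3 each). Of 5 genes that cleave sucrose after unloading (sucrose synthases and a cell wall invertase), 0 rose and 0 fell by limma. Limma-voom called 0, and the median log2 fold change was −0.01. Of the 5, 1 had an unadjusted p below 0.05, the sucrose synthase gene SUS4. Its log2 fold change was 0.51 (limma, adjusted p = 0.136). Without WT-1 it was called, at 0.72 (limma, adjusted p = 0.000165). The sucrose synthase SUS3 was the most abundant, with 508 ± 42.7 RPKM in rbpl and 575 ± 18.8 RPKM in WT (SD, n = 3 each). Of 4 loci listed as regulators of these transporters, 3 were tested, and 0 rose and 0 fell by limma. None of the 3 had an unadjusted p below 0.05 (0 of 3), and limma-voom called 0. NF-YB1, an endosperm transcription factor reported to activate SUT genes in rice, had 457 ± 44.8 RPKM in rbpl and 463 ± 4.83 RPKM in WT (SD, n = 3 each).

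Profiles over the 6 libraries were compared by the root-mean-square difference of mean-centred log2(RPKM + 1), among the tested transporters and listed loci, which left 24 candidates for each gene. SUT1 was closest to LOC_Os10g39440, at 0.065 log2 units, and next to SUS3, at 0.0683. SWEET11 was closest to the cell wall invertase CIN2 (LOC_Os04g33740), at 0.113, and next to SWEET4, at 0.135. The invertase had 118, 106 and 85.7 RPKM in rbpl, against 47.7, 88.4 and 86.6 RPKM in WT, with WT-1 the lowest. WT-1 was at 0.546 times the mean of WT-2 and WT-3 for the invertase, 0.564 times for SWEET11 and 0.491 times for SWEET4. The log2 fold change of the invertase was 0.51 (limma, adjusted p = 0.271), and 0.22 without WT-1 (adjusted p = 0.242). These distances describe all 6 libraries, were not taken without WT-1 and were not tested.

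**Figure D5:**
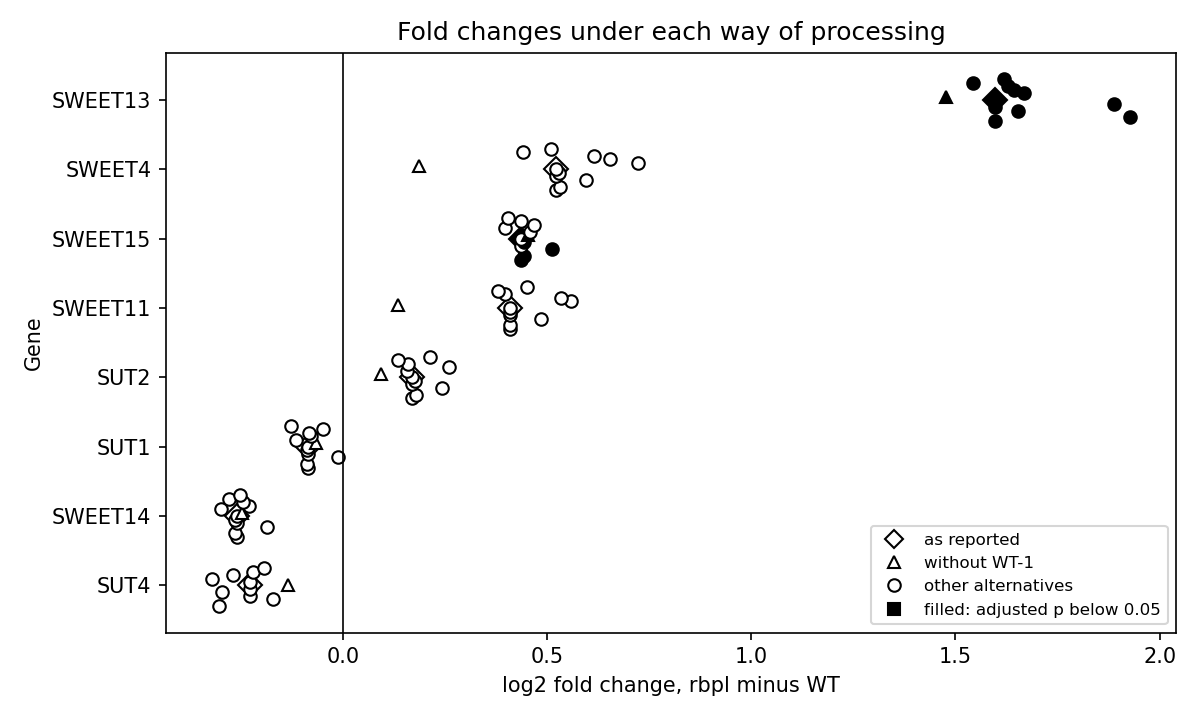
Log2 fold change, rbpl minus WT, of each tested transporter as reported (diamonds), without WT-1 (triangles) and under the other alternatives (circles), filled where the adjusted p was below 0.05. SWEET13 is filled throughout at 1.48 to 1.93, SWEET15 is filled in part, and the triangles of SWEET4 and SWEET11 lie at 0.19 and 0.13.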

How the data were processed

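The authors deposited RPKM per locus and library, per the file headers. The sources used here do not name the aligner, the counter, the genome build or the annotation. Whole reads and library totals were recovered from the RPKM steps (100% of 32287 loci with a value, tolerance 0.001 reads plus rounding error). The test was limma 3.58.1 (R 4.3.3), with its robust and trend settings and genotype as the sole term, on log2(RPKM + 1), two-sided, over 17507 loci. Tested on simulated data for rbpl against WT over 17507 loci, it found 67% of 100 planted 2-fold changes and 93% of 100 planted 4-fold changes. All changes were planted at loci above the median level, so these percentages do not cover lower loci such as SWEET13, SUT4 and SWEET2b. By mean level, 47.8% of tested loci were lower than SWEET13. Alternatives were another pseudocount, filter, scaling, limma-voom, a replicate block and leaving out each library. Python 3.11.15, numpy 2.4.6, pandas 2.3.3, scipy 1.17.1 and matplotlib 3.10.9 were used. RPKM sums weight genes per length.

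The transporters and lists were chosen with earlier results of these data known. Of the 10 transporter names, 9 have a RefSeq gene of that name (assembly ASM3414082v1) on the chromosome in the identifier, and SUT3 has none. Of the 14 further SWEET names, 10 have such a gene, and those without it are all among the loci with no reads. SWEET6a and SWEET6b were matched to the same RefSeq gene, so the check does not tell their loci apart. 0 of 55986 identifiers occur in that table, and list names come from general knowledge of rice nomenclature. The named loci are the 10 transporters, RBP-L, the called or else the highest locus of each list, and the 2 closest profiles to SUT1 and SWEET11. Outside this rule, SWEET6a, SWEET6b, SUS4, LOC_Os07g37320, LOC_Os02g13560 and the marker genes GluA1, GluA2 and SBE2b were named after their values were seen.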

Additional observations from a re-analysis of the deposited data

How the results depend on the processing

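The 12 alternatives were all planned. With the filter at 5 RPKM 660 loci were called in place of 1148, and leaving out 1 library gave 356 (without rbpl-1) to 3130 (without WT-1). Of the transporters, 1 was called with no filter, 1 with the replicate block, and 1 to 2 when a library was left out. The call lost was that of SWEET15, whose log2 fold change was 0.44 with no filter, 0.44 with the block and 0.40 to 0.47 with a library left out. In the other lists, 0 loci were called with no filter, 0 with the filter at 5 RPKM, and 0 to 5 with a library left out. The 5, without WT-1, were SWEET2b, SWEET6b, SUS4, LOC_Os07g37320 and LOC_Os02g13560. Their log2 fold changes there were 0.66, 0.34, 0.72, −0.60 and 0.29, in a setting where 18% of all tested loci were called. With WT-1 included they were 0.64, 0.40, 0.51, −0.50 and 0.27, and of these loci only SWEET2b was called. With a library left out, the log2 fold change of SWEET6a was −0.061 (without WT-1) to 0.057 and that of NF-YB1 −0.098 to 0.042. Median-of-ratios scaling gave NF-YB1 0.051. That scaling moved the split of all calls to 702 that rose and 428 that fell, against 605 and 543. For these changes the cause was not tested. Replicate numbers were shared, but the labels do not say whether they pair the samples. Correlations of same-numbered deviations were 0.0476, 0.259 and −0.380, too few values to decide on a pairing. With the block 963 loci were called. The few reads of SUT5 and the 0 reads of SUT3 limit what can be said of these genes, and their cause was not tested.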
